A study of Mus musculus with 36 samples.

Results

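The 10 genes of MHC class II antigen presentation were followed across visceral white adipose tissue (visWAT, here the epididymal depot) and liver. They are the rows of the deposited gene table named Cd74, H2-Aa, H2-Ab1, H2-Eb1, H2-DMa, H2-DMb1, H2-DMb2, H2-Oa, H2-Ob and Ciita, each found exactly once, and make up 10 of the 56748 genes in that table. RNA was sequenced from 18 male C57BL/6J mice, with 1 visWAT and 1 liver library per mouse and 36 libraries in all. Mice were 16 weeks old at the start. They then received chow (normal chow diet, NCD) or fat-rich food (high-fat diet, HFD) over 16 weeks. All mice carried loxP-flanked Mlkl alleles. Knockout mice (Mlkl Adi-KO, here KO) also carried the Adipo-Cre transgene, which per the study's methods deletes Mlkl in mature adipocytes, so that other cells of the sequenced tissue keep the gene. WT mice were littermates without Cre. Each tissue had 4 WT and 4 KO mice on NCD and 5 WT and 5 KO mice on HFD, which makes 8 groups over both tissues. The comparisons ask how diet and adipocyte Mlkl alter class II transcripts in the fat where the gene was deleted and in the liver where it was not.

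MHC class II molecules carry peptides from the endosome to the cell surface and show them to CD4 T cells. They are made mainly by dendritic cells, B cells and activated macrophages. In obese fat, macrophages that display class II gather around adipocytes, and adipocytes themselves have been described to make class II. Cd74 encodes the invariant chain that guides new class II molecules to the endosome and blocks their groove. H2-Aa and H2-Ab1 encode the alpha and beta chains of I-A, and H2-Eb1 encodes the beta chain of I-E. C57BL/6 mice lack a working alpha chain of I-E, and its gene, H2-Ea, was listed at 0 in every library of 7 of the 8 groups. H2-DMa, H2-DMb1 and H2-DMb2 encode the alpha chain and alternative beta chains of H2-M, which exchanges the invariant chain remnant for peptide. H2-Oa and H2-Ob encode H2-O, which restrains H2-M and is best known in B cells. Ciita encodes the class II transactivator, which binds no DNA by itself and is recruited to the X and Y boxes of class II promoters.

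The X and Y boxes are shown because members whose promoters carry alike boxes can be set beside each other in the results. Promoter sequence was found in RefSeq (GRCm38.p6, a different build from the expression table) for 7 of the 10 genes, and Cd74, H2-Ab1 and Ciita had no entry. The 250 bases before each gene start were searched on both strands for an X box, taken as AG, any 2 bases, AC, any 2 bases and ATG, and a Y box, taken as ATTGG. These letters were chosen with the promoter sequences known. An X box was found in 2.6% of the 32851 promoter entries and a Y box in 33.8%. An X box ending 20 to 35 bases before a Y box on the same strand was found in 20 entries, 0.0609% of all, and 3 of the members were among them: H2-Eb1, H2-DMb1 and H2-Ob. Printed 5′ to 3′ on the strand of the gene, with X and Y boxes in capitals, the stretches were as follows.
H2-Eb1, chr17:34305770-34305824, plus strand: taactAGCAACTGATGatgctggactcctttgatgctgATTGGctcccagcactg
H2-DMb1, chr17:34153092-34153146, plus strand: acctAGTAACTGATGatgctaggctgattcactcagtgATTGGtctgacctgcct
H2-DMb2, chr17:34145121-34145175, plus strand: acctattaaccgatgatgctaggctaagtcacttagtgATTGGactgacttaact
H2-Ob, chr17:34238810-34238864, plus strand: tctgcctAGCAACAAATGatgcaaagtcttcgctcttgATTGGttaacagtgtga
H2-Aa, chr17:34287855-34287909, minus strand: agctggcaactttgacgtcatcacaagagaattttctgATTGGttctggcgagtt
H2-DMb1 and H2-DMb2 had the same base at 46 of the 55 positions of these stretches, while the other pairs shared 12 to 22. Of the 11 bases of the H2-DMb1 X box, 2 differ in H2-DMb2. H2-Oa had an X box starting 141 bases before its start and a Y box starting 43 bases before it, outside the spacing searched. A match is a description of letters, and no match says only that these letters are not in this window.

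In the coordinates of the deposited table (mm39), 8 of the 10 genes lie within 224.3 kb of chromosome 17, from 34311314 to 34535648. Going along that chromosome, H2-Oa starts at 34311314, H2-DMa at 34338515, H2-DMb2 at 34362281, H2-DMb1 at 34372046, H2-Ob at 34457877, H2-Ab1 at 34476663, H2-Aa at 34501718 and H2-Eb1 at 34524841. H2-Aa is the only one of the 8 on the minus strand. Ciita lies at 10297923 to 10346282 on chromosome 16, and Cd74 on chromosome 18. All 10 are annotated as protein coding. Some share bases with other rows: H2-Eb1 with Gm20513, H2-Oa with BC051537 and Ciita with Dexi, all on the opposite strand, H2-DMa with 4 rows that include Brd2, and Cd74 with a microRNA. Whether counting used strand is not given in the sources used here, so that reads of these neighbours cannot be told apart from those of the members.

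Reads on genes ranged from 21580696 to 30322171 per visWAT library and from 20875463 to 25530574 per liver library. Values are FPKM, read-pair numbers divided by gene length and library size, so that levels of different genes can be set side by side per length. The labelled tissues were checked against their markers: the summed FPKM of 5 adipocyte genes was 3763 to 7602 in visWAT and 5.47 to 99.9 in liver, and that of 4 hepatocyte genes was 37200 to 62430 in liver and 0.508 to 699.5 in visWAT. The 699.5 was that of KO HFD mouse 156, and the next highest visWAT library, WT HFD mouse 164, was at 94.52. Mlkl itself was at 3.91 to 6.28 FPKM in 8 of the 9 WT visWAT libraries and at 1.96 to 2.72 FPKM in the 9 KO visWAT libraries. The library labelled WT NCD mouse 182 was at 2.29 FPKM, within the KO range and against its label. It also had the highest T cell marker sum in visWAT, 11.15 FPKM, with the next at 5.862 FPKM. The library size behind its FPKM was 1.08 times its reads on genes. In visWAT libraries other than those of mice 182 and 183 it was 1.30 to 1.40 times. In the visWAT library of WT NCD mouse 183, 17.6% of reads fell on seminal vesicle genes, a tissue that lies beside this fat depot. For mouse 182 this share was 0.0243%. Whether these features bear on the Mlkl level of mouse 182 was not tested.

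In visWAT of chow-fed WT mice, Cd74 was the most abundant member and ranked 114th among all genes by mean FPKM. It was at 298.6, 242.9, 158.9 and 257.0 FPKM in mice 165, 180, 182 and 183, a mean of 239 ± 58.6 (SD, n = 4). The classical chains followed, with means of 86.6 ± 19.3 FPKM for H2-Eb1, 61.0 ± 15.1 for H2-Ab1 and 45.6 ± 9.95 for H2-Aa. The ranges of H2-Eb1, H2-Ab1 and H2-Aa overlapped between mice, but within each of the 18 visWAT libraries the order was the same: the ratio of H2-Eb1 to H2-Ab1 was 1.23 to 1.51 and that of H2-Aa to H2-Ab1 was 0.653 to 0.825. The peptide editors were an order lower, with 7.67 ± 1.91 FPKM for H2-DMb1 and 4.68 ± 1.09 for H2-DMa, and H2-DMb2 was at 1.49 ± 0.398. Ciita at 0.564 ± 0.122, H2-Ob at 0.438 ± 0.0505 and H2-Oa at 0.222 ± 0.104 FPKM were the lowest. H2-Oa rested on 5 to 17 reads per library in this group, while Ciita, a longer transcript, rested on 131 to 249 reads. The library labelled WT NCD mouse 182 had the lowest value of the group for Cd74, H2-Aa, H2-Ab1, H2-Eb1, H2-DMa, H2-DMb1, H2-DMb2 and H2-Oa.

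In WT visWAT, 7 members rose with HFD: the invariant chain, the 3 classical chains, H2-DMa, H2-DMb1 and Ciita. Of the 9 members tested, these 7 were called higher and none lower (limma on log2(FPKM + 1), Benjamini-Hochberg adjustment over all genes tested, threshold 0.05), where 21.9% of the 14161 genes tested were called higher. Over all genes the split was 3108 higher and 2239 lower. It was 3805 and 227 with libraries rescaled to the same FPKM sum (the TPM scale), which moved the median of all genes by 0.43, and 2693 and 3169 with edgeR, while each of these alternatives called the same number of members higher, 7. H2-DMb2 and H2-Ob were not called, and H2-Oa was below the filter of a mean of 0.5 FPKM. The median log2 change of the 9 members was 1.61, beside −0.01 over all genes tested. Without mice 182 and 183 the same number, 7, was called and the median was 1.40. In bulk tissue, more cells of a type and more RNA per cell cannot be told apart.

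Cd74 on HFD was at 638.5, 877.3, 908.6, 851.2 and 780.1 FPKM in WT mice 154, 155, 161, 162 and 164, a mean of 811 ± 108 (SD, n = 5). Every HFD library was above every NCD library, and the mean was 3.39-fold higher (two-sided exact permutation p = 0.0159, the smallest that 5 against 4 mice allow). The log2 change was 1.78 (SE 0.194, 95% interval 1.35 to 2.22, limma adjusted p = 9.45e-05), and Cd74 went from the 114th to the 28th most abundant gene.

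The chains of I-A and I-E rose with it, by 3.02 to 3.36-fold. H2-Aa was at 55.49, 49.92, 32.18 and 44.79 FPKM on NCD and at 121.6, 166.6, 173.8, 156.5 and 146.4 FPKM on HFD, with log2 change 1.74 (SE 0.168, limma adjusted p = 4.37e-05). H2-Ab1 was at 73.33, 64.54, 39.0 and 67.23 FPKM on NCD and at 161.0, 209.5, 220.7, 203.6 and 181.1 FPKM on HFD, with log2 change 1.69 (SE 0.186, limma adjusted p = 0.000102). H2-Eb1 was at 98.98, 97.33, 58.0 and 91.99 FPKM on NCD and at 210.9, 271.8, 298.9, 271.8 and 254.5 FPKM on HFD, with log2 change 1.61 (SE 0.176, limma adjusted p = 9.9e-05). The diet groups did not overlap for any of the 3 chains, and mouse 161 had the highest and mouse 154 the lowest HFD value in each.

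H2-DMb1 rose most among the members. It was at 9.699, 7.322, 5.205 and 8.447 FPKM in the NCD libraries and at 40.02, 53.37, 54.5, 49.99 and 44.04 FPKM in the HFD libraries, a 6.31-fold difference of means. The log2 change was 2.53 (SE 0.161, 95% interval 2.17 to 2.89, limma adjusted p = 3.2e-06). The interval of H2-DMb1 lay wholly above that of H2-DMa, whose log2 change was 1.26 (95% interval 0.94 to 1.59, limma adjusted p = 0.000132). H2-DMa, the alpha chain that pairs with it, was at 5.658, 4.166, 3.383 and 5.501 FPKM on NCD and at 10.19, 13.86, 14.18, 13.14 and 11.29 FPKM on HFD. Neither gene's diet groups overlapped.

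H2-DMb2, the neighbouring beta chain gene, did not pass the test. It was at 2.027, 1.472, 1.078 and 1.364 FPKM on NCD and at 1.698, 1.192, 0.9513, 2.676 and 1.005 FPKM on HFD. The groups overlapped fully, and the log2 change was −0.02 with a 95% interval of −0.46 to 0.42 (limma adjusted p = 0.951), an interval that lay wholly below that of H2-DMb1. H2-DMb2 was measured from 51 to 169 reads per library in these groups. Of the 150-base windows of its annotated transcripts, the read length used, 3.34% were identical to a window of H2-DMb1, and 4.71% of the windows of H2-DMb1 were identical to one of H2-DMb2. Of the 2041 to 3693 H2-DMb1 reads per WT HFD library, that share comes to 96 to 174 reads, about as many as the 55 to 169 reads of H2-DMb2 itself, while on NCD it comes to 11 to 27 against 51 to 126. In WT HFD mouse 161, with 3693 H2-DMb1 reads, the share was 174 and H2-DMb2 had 67 reads. The reads were paired, and a pair is shared only where both mates are, which these shares do not take into account. How reads in these windows were counted is not given in the sources used here, so the level and the diet change of H2-DMb2 are uncertain.

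Ciita was the least abundant of the members that rose. It was at 0.7341, 0.5561, 0.5188 and 0.4485 FPKM on NCD and at 2.347, 2.113, 2.94, 2.669 and 2.557 FPKM on HFD. Every HFD library was above every NCD library, and the difference of means was 4.47-fold. The log2(FPKM + 1) change was 1.17 (SE 0.0858, 95% interval 0.98 to 1.36, limma adjusted p = 7.58e-06), which understates the fold of a gene near 1 FPKM. On recovered reads edgeR gave 2.11 for Ciita and DESeq2 2.13.

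The H2-O genes stayed low. H2-Oa was at 0.3396, 0.137, 0.1312 and 0.2784 FPKM on NCD and at 0.4451, 0.5012, 0.4231, 0.8453 and 0.3402 FPKM on HFD. Its groups did not overlap, but the lowest HFD library (0.3402) and the highest NCD library (0.3396) were nearly equal, and with 5 to 43 reads per library the separation rests on small counts (two-sided exact permutation p = 0.0159). H2-Ob was at 0.4964, 0.3763, 0.4254 and 0.4551 FPKM on NCD and at 0.6862, 0.6803, 0.5072, 1.182 and 0.4389 FPKM on HFD, with overlapping groups (log2 change 0.23, limma adjusted p = 0.17). As for Ciita, log2(FPKM + 1) understates the fold at this level, and the log2 change of H2-Ob ran from 0.13 to 0.7 over the alternatives. WT HFD mouse 162 had the highest value of its group for H2-DMb2, H2-Oa and H2-Ob, but not for any of the 7 genes that rose. Non-overlap with HFD above NCD was seen for 7 of the 9 members tested, where 19.6% of all genes tested showed it.

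**Figure D1:**
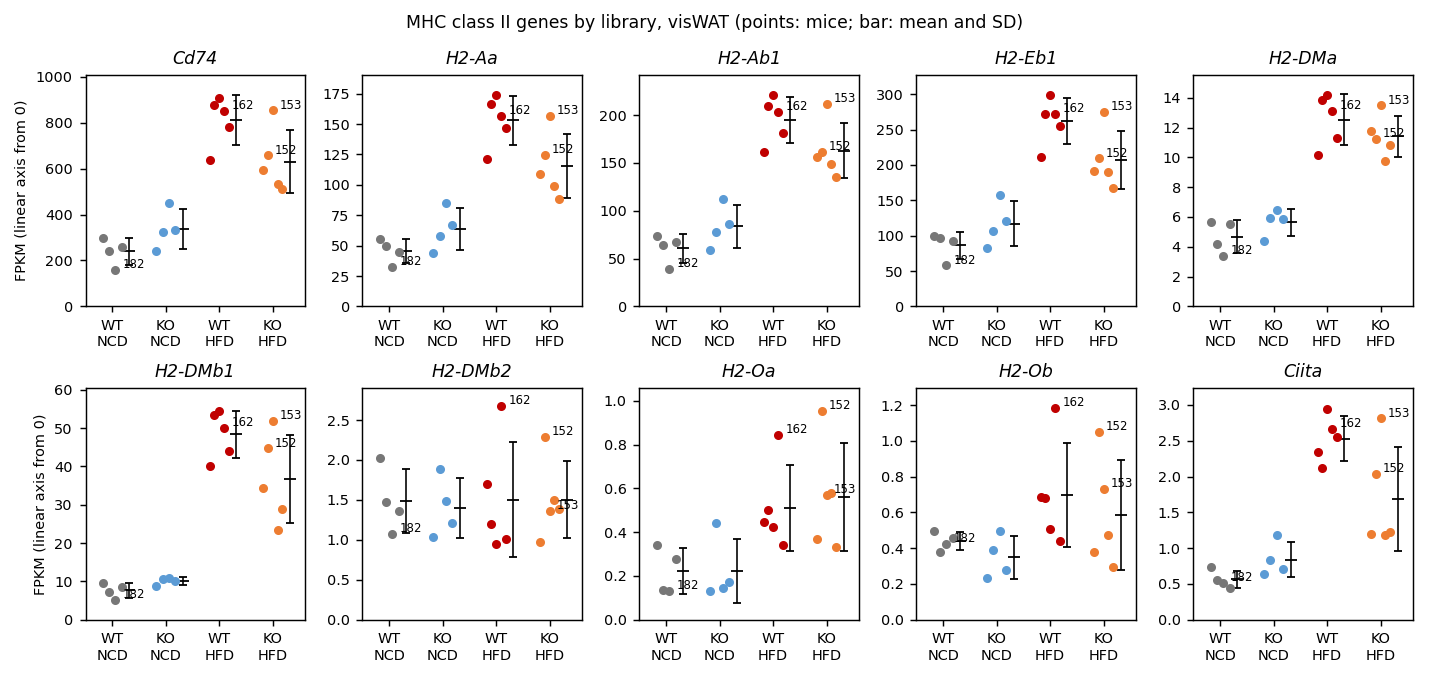
FPKM of the 10 members in visWAT by group, with 1 point per mouse (mice 152, 153, 162 and 182 are numbered), the group mean as a bar and the SD as an error bar, each panel on its own linear axis from 0. In WT mice Cd74, H2-Aa, H2-Ab1, H2-Eb1, H2-DMa, H2-DMb1 and Ciita on HFD lie above every NCD mouse, while H2-DMb2 covers 0.951 to 2.68 FPKM on HFD and 1.08 to 2.03 on NCD.

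In KO visWAT the same 7 genes were called higher on HFD, 7 of 8 members tested, where 23.3% of the 14026 genes tested were called higher (limma, Benjamini-Hochberg). The median log2 change of the 8 members was 0.89, beside 0.01 over all genes tested. Non-overlap was seen for 6 of the 8, where 20.1% of all genes tested had every HFD library above every NCD library. H2-Oa and H2-Ob were below the filter.

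Cd74 in KO mice was at 239.7, 324.8, 450.3 and 333.9 FPKM on NCD (mice 166, 179, 197 and 199) and at 596.2, 657.6, 854.0, 534.8 and 512.1 FPKM on HFD (mice 151, 152, 153, 156 and 157). The lowest HFD library was still above the highest NCD library, and the log2 change was 0.91 (SE 0.202, 95% interval 0.46 to 1.37, limma adjusted p = 0.00632). H2-Aa was at 44.26, 57.58, 85.34 and 67.24 FPKM on NCD and at 109.3, 124.7, 156.6, 99.23 and 88.59 FPKM on HFD (log2 change 0.86, limma adjusted p = 0.00958). For H2-Aa, KO NCD mouse 197 at 85.34 came close to KO HFD mouse 157 at 88.59, so that the groups were only just apart.

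H2-Ab1 was at 58.6, 77.55, 112.7 and 85.76 FPKM on NCD and at 155.8, 161.8, 211.8, 149.1 and 135.7 FPKM on HFD (log2 change 0.97, limma adjusted p = 0.00351). H2-Eb1 was at 82.73, 106.0, 158.1 and 120.1 FPKM on NCD and at 191.6, 209.1, 275.3, 189.4 and 168.0 FPKM on HFD (log2 change 0.84, limma adjusted p = 0.00807). For all 3 classical chains and Cd74, mouse 197 was the highest on NCD and mouse 153 the highest on HFD.

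H2-DMb1 again had the largest log2 change, 1.72 (SE 0.209, 95% interval 1.25 to 2.19, limma adjusted p = 0.00048). It was at 8.675, 10.59, 10.96 and 10.02 FPKM on NCD and at 34.33, 44.72, 51.97, 23.53 and 28.98 FPKM on HFD. Mice 156 and 157 had the lowest HFD values for H2-DMb1, and the lowest of them, 23.53, was still well above the highest on NCD, 10.96. H2-DMa was at 4.371, 5.899, 6.469 and 5.846 FPKM on NCD and at 11.78, 11.22, 13.49, 9.763 and 10.84 FPKM on HFD, with a narrower spread (log2 change 0.91, SE 0.112, limma adjusted p = 0.00051). H2-DMb2 was at 1.03 to 1.88 FPKM on NCD and at 0.975 to 2.29 on HFD (log2 change 0.05, 95% interval −0.29 to 0.39, limma adjusted p = 0.797).

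Ciita in KO mice was at 0.6367, 0.8294, 1.19 and 0.7058 FPKM on NCD and at 1.193, 2.036, 2.812, 1.184 and 1.224 FPKM on HFD. The groups overlapped: HFD mouse 156 at 1.184 was below NCD mouse 197 at 1.19. The log2 change was 0.52 (SE 0.181, 95% interval 0.11 to 0.93, limma adjusted p = 0.0433). This call was lost, with limma adjusted p from 0.0525 to 0.108, with no filter, on the TPM scale, and when any of KO NCD mice 166, 179 or 199 or KO HFD mice 152 or 153 was left out. H2-Oa and H2-Ob covered 0.130 to 0.440 and 0.233 to 0.497 FPKM on NCD and 0.332 to 0.954 and 0.295 to 1.05 FPKM on HFD, overlapping for both genes.

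Because H2-DMb1 and H2-DMb2 differed in their response, the ratio of their FPKM was followed as a description. H2-DMb1 over H2-DMb2 was 4.78 to 6.19 in WT NCD, 5.63 to 8.42 in KO NCD, 18.7 to 57.3 in WT HFD and 15.8 to 38.1 in KO HFD visWAT. The HFD and NCD ratios did not overlap in either genotype, and they carry the same uncertainty of H2-DMb2. In liver the same ratio was 2.69 to 14.2 over all 18 libraries, and the diets overlapped in both genotypes. The ratio of H2-Ab1 to H2-DMb1 in WT visWAT was 7.49 to 8.82 on NCD and 3.93 to 4.11 on HFD, so that the beta chain of H2-M rose further than that of I-A. By contrast, the ratio of Cd74 to H2-Ab1 was 3.59 to 4.31 in all 18 visWAT libraries and 3.45 to 5.26 in all 18 liver libraries.

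**Figure D2:**
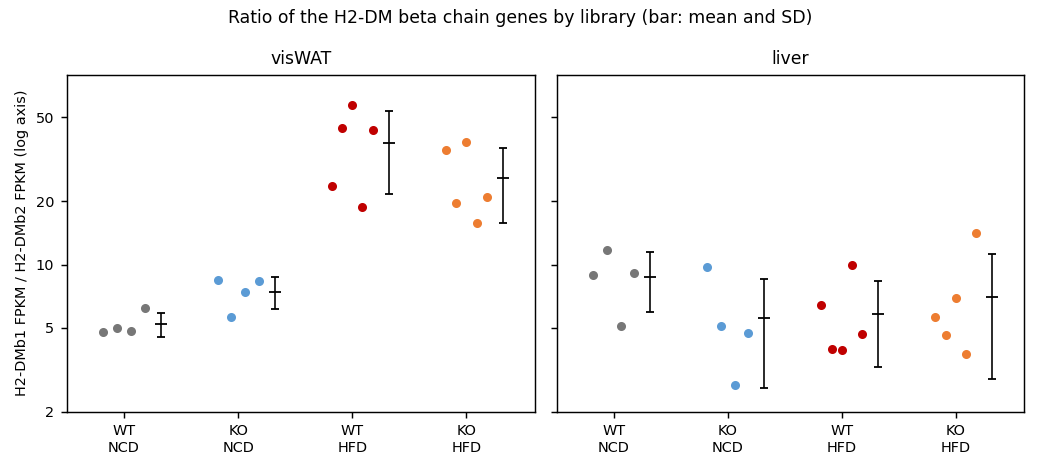
Ratio of H2-DMb1 to H2-DMb2 FPKM in each library by group in visWAT and liver, on a log axis, with group means and SD. The visWAT ratios are 4.78 to 8.42 on NCD and 15.8 to 57.3 on HFD, and the liver ratios run from 2.69 to 14.2 with the diets overlapping.

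Among HFD-fed mice, no member passed the test between KO and WT visWAT after adjustment. Of the 10 members tested, 0 were called by limma, by edgeR or by DESeq2, where limma called 0.0215% of the 13963 genes tested (3 genes). At an unadjusted p under 0.05, limma gave 5 members, edgeR 4 and DESeq2 4, where limma gave 21.5% of all genes, edgeR 21.4% and DESeq2 23.8%. The limma count fell to 0 without KO mouse 156 or 157, to 1 without KO mouse 151 or WT mouse 161 and to 2 without WT mouse 155 or 162, and was 6 without WT mouse 154 or KO mouse 153. The share of all genes moved too. It was 12.1% without KO mouse 156, 11.4% without 157, 12.2% without 151 and 14.4% without WT mouse 161. Without WT mice 155, 162 and 154 it was 18.7%, 16.6% and 15.9%, and without KO mouse 153 it was 32.4%. The 5 members were lower in KO: the log2 difference was −0.38 for Cd74 (95% interval −0.72 to −0.03, limma adjusted p = 0.223), −0.42 for H2-Aa (limma adjusted p = 0.221), −0.35 for H2-Eb1 (limma adjusted p = 0.221), −0.44 for H2-DMb1 (limma adjusted p = 0.232) and −0.42 for Ciita (limma adjusted p = 0.221). The groups overlapped for all 10 members. The mean of Cd74 was 631 ± 137 FPKM in KO and 811 ± 108 in WT, and that of Ciita 1.69 ± 0.724 in KO and 2.53 ± 0.314 in WT. KO HFD mouse 153, at 854.0 FPKM of Cd74 and 2.812 of Ciita, lay among the WT mice, whereas mice 156 and 157 had the lowest Cd74 of both HFD groups. H2-DMb2, H2-Oa and H2-Ob differed by 0.02, 0.04 and −0.11, with intervals that reached from −0.43 to 0.44. Over the alternatives, the log2 difference ran from −0.38 to −0.21 for H2-Ab1 and from −0.23 to −0.07 for H2-DMa.

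Among chow-fed mice the values leaned the other way without passing the test. Of the 8 members tested in NCD visWAT, 0 were called by limma, edgeR or DESeq2, where limma called 0% of the 14063 genes tested (edgeR 0 and DESeq2 8 genes, with 528 at an unadjusted p under 0.05 by limma). Among the members, limma gave 0, edgeR 1 and DESeq2 1 at an unadjusted p under 0.05, and limma gave 5 without KO mouse 166 and 6 on the TPM scale. The shares of all genes were 3.75% with limma, 4.37% with edgeR and 4.73% with DESeq2. With limma they were 3.15% without KO mouse 166 and 5.4% on the TPM scale. The log2 difference of KO minus WT was 0.49 for Cd74 (95% interval −0.07 to 1.06), 0.46 for H2-Aa, 0.45 for H2-Ab1, 0.42 for H2-Eb1, 0.38 for H2-DMb1, 0.24 for H2-DMa, 0.23 for Ciita and −0.05 for H2-DMb2, with limma adjusted p of 0.916 or 0.96. Without the WT library labelled mouse 182, the lowest of its group for most members, the values were smaller: 0.31 for Cd74, 0.31 for H2-Aa, 0.25 for H2-Ab1, 0.24 for H2-Eb1, 0.22 for H2-DMb1 and 0.12 for H2-DMa. The intervals leave room for a difference of about 1 log2 unit. On the TPM scale the median of all genes in this comparison moved by 0.34, so that the size of these values depends on the scaling.

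The test of the difference between the diet effects, KO minus WT, was also past no threshold after adjustment. In visWAT, 0 of 9 members tested were called by limma, edgeR or DESeq2, where limma called 0% of 14136 genes (edgeR 0 and DESeq2 19 genes, with 1867 at an unadjusted p under 0.05 by limma), and 6 members had an unadjusted p under 0.05 with each of the 3 tools, where 13.2% of all genes had with limma, 14.4% with edgeR and 15.5% with DESeq2. The differences were −0.87 for Cd74 (95% interval −1.48 to −0.26), −0.88 for H2-Aa, −0.72 for H2-Ab1, −0.77 for H2-Eb1, −0.81 for H2-DMb1 and −0.65 for Ciita, with limma adjusted p from 0.326 to 0.35. The values for H2-DMa, H2-DMb2 and H2-Ob were −0.36, 0.07 and −0.01. Without the WT NCD libraries of mice 182 and 183, 4 members had an unadjusted p under 0.05, where 9.54% of all genes had. These contrasts use the same WT and KO mice as the diet and genotype comparisons above, so their values are not separate evidence.

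**Figure D3:**
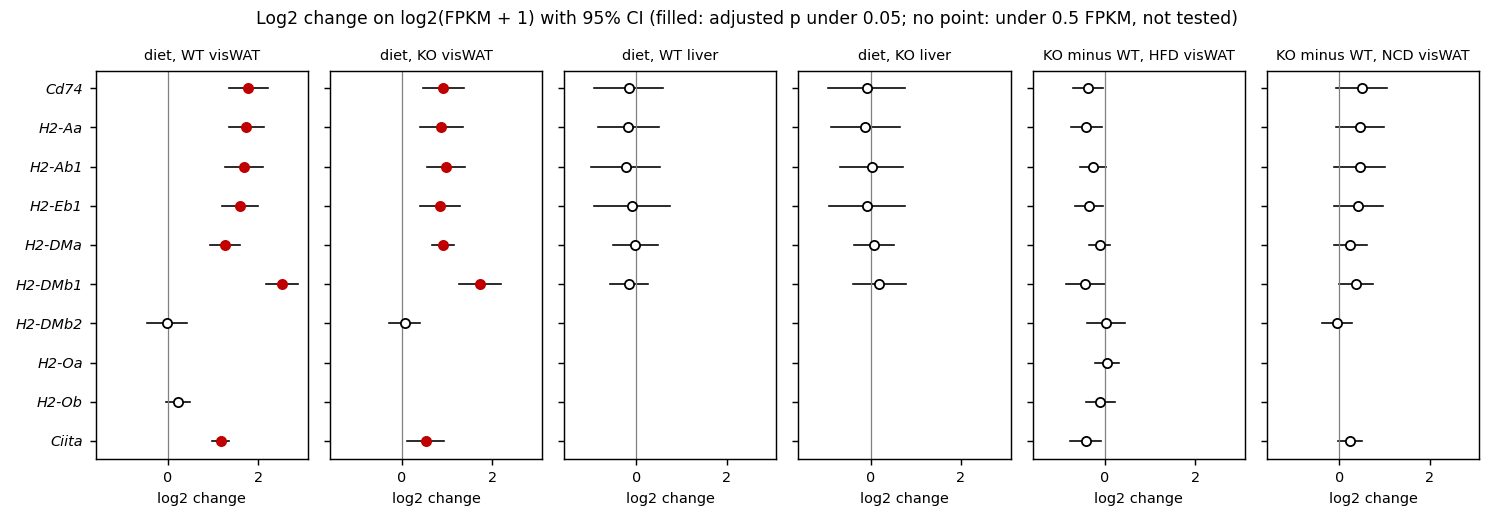
Log2 changes of the members tested, with 95% intervals from limma on log2(FPKM + 1), in the diet comparisons of both tissues and the genotype comparisons of visWAT. Filled points have an adjusted p under 0.05: 7 members in the WT visWAT diet comparison and 7 in the KO visWAT diet comparison. None is filled in the liver diet or visWAT genotype comparisons.

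In liver the members were at lower levels and none passed the diet test. Cd74 was at 50.75, 34.76, 133.1 and 40.85 FPKM in WT NCD livers and at 53.68, 52.42, 40.09, 44.7 and 58.46 FPKM in WT HFD livers. The liver of WT NCD mouse 182, whose visWAT held the lowest Cd74 of its group, held the highest Cd74 of all 18 livers, and the other 3 WT NCD livers overlapped with the HFD livers. Of 6 members tested in WT liver, 0 were called by limma, by edgeR or by DESeq2, where limma called 25.3% of the 13330 genes tested in either direction, and 0 had an unadjusted p under 0.05 with any of the 3 tools. The log2 changes ran from −0.24 for H2-Ab1 to −0.02 for H2-DMa. Without mouse 182 all 6 were above 0, from 0.05 for H2-DMb1 to 0.33 for H2-Eb1, so that the sign rests on that liver.

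In KO liver, Cd74 was at 38.95, 46.92, 38.7 and 31.69 FPKM on NCD and at 20.51, 99.2, 36.92, 30.82 and 26.47 FPKM on HFD. Here the liver of KO HFD mouse 152 stood above the others, mouse 153 lay inside the NCD range, and the other 3 HFD livers lay below it. Of 6 members tested, 0 were called by limma, edgeR or DESeq2, where limma called 22.2% of the 13149 genes tested in either direction, and 0 had an unadjusted p under 0.05 with any of the 3 tools. The log2 changes ran from −0.12 for H2-Aa to 0.19 for H2-DMb1. Without mouse 152, Cd74 and H2-Eb1 each gave a log2 change of −0.45 and 3 of the 6 members had an unadjusted p under 0.05, where 35.3% of all genes had, and limma called 0.

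The classical chains followed Cd74 in liver. H2-Aa was at 7.606, 5.019, 18.54 and 6.207 FPKM in WT NCD, 5.096, 7.398, 5.833 and 5.41 in KO NCD, 8.111, 7.288, 5.755, 7.165 and 7.738 in WT HFD and 3.06, 14.7, 5.669, 3.69 and 4.153 in KO HFD livers. H2-Ab1 was at 7.55 to 33.5, 7.10 to 10.5, 9.35 to 13.6 and 5.10 to 20.4 FPKM in the same order of groups. H2-Eb1 was at 7.25 to 39.0, 8.59 to 13.4, 12.2 to 17.5 and 5.92 to 28.3 FPKM. In each of these genes the highest WT NCD value came from mouse 182 and the highest KO HFD value from mouse 152, and all groups overlapped.

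The other members were near or below 1 FPKM in most livers. H2-DMa was at 0.434 to 2.42 FPKM and H2-DMb1 at 1.05 to 4.43 FPKM over the 18 livers. Ciita was at 0.0513 to 0.557 FPKM, from 8 to 110 reads per library, with 0.2282, 0.1008, 0.5567 and 0.1893 FPKM in WT NCD and 0.1041, 0.1085, 0.07185 and 0.06229 FPKM in KO NCD livers. These Ciita groups overlapped, since WT NCD mouse 180 was below 2 of the 4 KO livers. H2-DMb2 was at 0.105 to 0.954 FPKM, H2-Ob at 0.0855 to 0.287 and H2-Oa at 0.0388 to 0.391 in liver. H2-Oa rested on 1 to 10 reads per liver library, too few to show a difference at this depth.

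**Figure D4:**
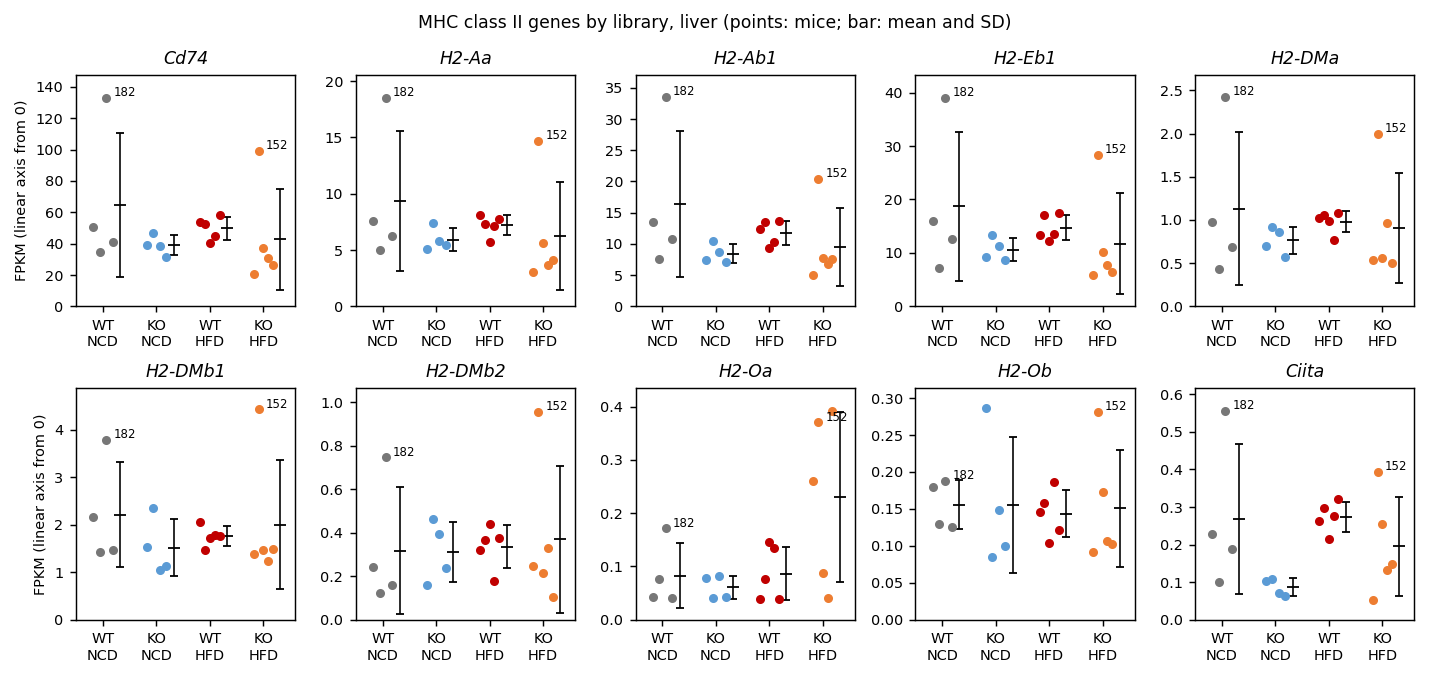
FPKM of the 10 members in liver by group, with 1 point per mouse, the group mean as a bar and the SD as an error bar, each panel on its own linear axis from 0. WT NCD mouse 182 and KO HFD mouse 152 hold the highest values of their groups for Cd74 (133 and 99.2 FPKM), while the 5 WT HFD livers stay between 40.1 and 58.5 FPKM.

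Genotype comparisons in liver gave no call among the members. On HFD, 0 of 6 members tested were called by limma, edgeR or DESeq2, where limma called 0.197% of 13215 genes, and 0 had an unadjusted p under 0.05 with any of the 3 tools. The log2 difference of KO minus WT was −0.44 for Cd74 (95% interval −1.20 to 0.33), −0.53 for H2-Eb1 and 0.03 for H2-DMb1. Without KO HFD mouse 152, limma called 0 of the 6 and all 6 had an unadjusted p under 0.05, where 17.5% of all genes had. On NCD, 0 of 6 were called by limma, edgeR or DESeq2, where limma called 0.00758% of 13193 genes, with values from −0.69 for H2-Ab1 to −0.20 for H2-DMa. At an unadjusted p under 0.05, limma gave 0 of the 6 on NCD, edgeR 1 and DESeq2 1. Over all 13193 genes, limma gave 4.35%, edgeR 623 genes and DESeq2 613. Without mouse 182 the values of the members ran from −0.28 to 0.06. The genotype-by-diet interaction in liver gave 0 calls of 6 with limma, edgeR and DESeq2, where limma called 0.0151% of 13248 genes, 0 had an unadjusted p under 0.05 with any of them, and its values of 0.01 to 0.36 all turned negative without WT NCD mouse 182 and KO HFD mouse 152.

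Class II transcripts were higher in visWAT than in liver, and more so on HFD. In WT mice on NCD, 7 of 7 members tested were called higher in visWAT, where 31.5% of 14544 genes were. Cd74 was 3.69-fold, H2-Aa 4.88-fold and H2-DMb2 4.67-fold higher by group means. Mouse 182 had low visWAT and high liver values, and without it these were 6.32-fold, 7.98-fold and 9.25-fold, with 7 of 7 still called. In WT mice on HFD, 8 of 8 were called higher, where 41.6% of 14666 genes were, with 16.3-fold for Cd74, 21.2-fold for H2-Aa, 27.5-fold for H2-DMb1 and 9.21-fold for Ciita. H2-DMb2 was 4.48-fold higher on HFD. On the TPM scale the median of all genes moved by 0.56 on NCD and by 0.96 on HFD, and the split of all genes from 4580 higher and 4947 lower to 5722 and 2145 on NCD and from 6101 and 6313 to 10525 and 2812 on HFD. RNA was extracted with a different reagent in each tissue, so that tissue and extraction cannot be told apart.

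The difference between the diet effects of visWAT and liver was tested directly in WT mice. Of 8 members tested, 7 had a larger log2 change in visWAT (limma, Benjamini-Hochberg), where 21.8% of 14746 genes had. The difference was 2.69 for H2-DMb1 (limma adjusted p = 4.49e-07), 1.95 for Cd74 (limma adjusted p = 0.00126), 1.92 for H2-Aa (limma adjusted p = 0.000466), 1.93 for H2-Ab1 (limma adjusted p = 0.00139), 1.70 for H2-Eb1 (limma adjusted p = 0.00534), 1.29 for H2-DMa (limma adjusted p = 0.00133) and 1.15 for Ciita (limma adjusted p = 3.94e-06). H2-DMb2 gave −0.06 (limma adjusted p = 0.874). Without mouse 182 the value of H2-Eb1 was 1.10, and it was still called. On the TPM scale the median of all genes moved by 0.39 in this comparison, and their split from 3214 higher and 2687 lower to 4017 and 576.

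The machinery that feeds class II molecules moved with the members in visWAT. All 6 endosomal processing genes rose with HFD in both genotypes (limma, Benjamini-Hochberg). They were Ctss, the cathepsin that trims the invariant chain (log2 change 4.45 in WT and 3.27 in KO), Lgmn, the asparagine endopeptidase (3.21 and 2.06), Ifi30, the lysosomal thiol reductase (2.78 and 2.15), Ctsb (1.77 and 1.35), Ctsl (1.73 and 1.30) and Ctsd (1.33 and 1.32). The median over the list was 2.28 in WT and 1.71 in KO, beside −0.01 and 0.01 over all genes. Of all genes tested, 21.9% were called higher in WT and 23.3% in KO.

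Genes of class II turnover and co-stimulation were called higher in 6 of 7 in WT and 3 of 7 in KO, where 21.9% and 23.3% of all genes were. Cd83, which protects class II from ubiquitination, rose by 2.65 in WT and 1.36 in KO, and Cd40 and Icosl rose in both. Marchf1, the ligase that removes class II from the surface, rose by 0.79 in WT and gave 0.24 in KO (limma adjusted p = 0.265), and Cd80 and Cd86, the co-stimulatory ligands of CD28, rose by 0.63 and 0.58 in WT. Whether these differ between genotypes was not shown, since the interaction called none of the 7, of which 5 had an unadjusted p under 0.05 with limma, where 13.2% of all genes had.

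The constitutive factors that bind class II promoters did not move as a group. Of the 7 promoter factors tested in WT, 1 rose (Nfya, 0.76) and 1 fell (Rfxank, by 0.23), and in KO 3 fell, namely Creb1 by 0.28, Nfyb by 0.19 and Rfx5, the X box factor, by 0.31. On the interferon gamma axis, the main known inducer of Ciita, Ifngr2 rose by 1.11 in WT and 0.79 in KO and Jak1 by 0.49 and 0.18. Irf1 rose by 0.36 in KO, while Ifngr1 fell by 0.43 and Jak2 by 0.35 there. Ifng itself was below the filter. Of 9 class I presentation genes, 2 rose in WT (Tapbp 0.61, H2-K1 0.50) and 4 in KO (Tapbp 0.48, H2-K1 0.44, Psmb8 0.46, B2m 0.65). For comparison with these 3 lists, limma called 21.9% of all genes tested higher in WT and 23.3% in KO. It called 2239 of 14161 genes lower in WT and 2853 of 14026 in KO. The median of the class I list was 0.09 in WT and 0.35 in KO.

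In liver, limma called 25.3% of all genes tested with diet in WT and 22.2% in KO, in either direction. With diet, 0 of the 6 endosomal genes were called in WT or KO by limma, with 1 and 0 at an unadjusted p under 0.05, where 37.5% and 35.6% of all genes had. Of the 7 promoter factors, 1 rose and 1 fell in WT and 2 rose and 1 fell in KO. The interferon gamma list had 1 lower call of 6 in WT and 1 higher call of 6 in KO, the class I list had 1 higher and 1 lower of 9 in WT and 3 higher in KO, and neither of the 2 turnover and co-stimulation genes tested was called. Between genotypes on HFD in visWAT, limma called 0 genes of these lists, with 4 of 7 promoter factors, 3 of 7 turnover and co-stimulation genes, 3 of 7 interferon gamma genes, 0 of 6 endosomal and 0 of 9 class I genes at an unadjusted p under 0.05, where 21.5% of all genes had.

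Among the cells known to carry class II, macrophage markers and most dendritic cell markers tested moved with the members in visWAT. The part of any of these cells in the results was not tested. All 10 macrophage markers rose with HFD in WT visWAT (median log2 change 2.35), among them Cd68 (4.65) and Adgre1, which encodes the F4/80 antigen, and 8 of 10 rose in KO (median 1.42), where 21.9% and 23.3% of all genes tested were called higher. Their summed FPKM was 211 to 237 in WT NCD, 239.9 to 374.2 in KO NCD, 1442 to 2099 in WT HFD and 682 to 1854 in KO HFD. KO HFD mice 156 and 157, with the lowest Cd74 of the HFD groups, had the lowest sums on HFD, 681.7 and 684.1. Between genotypes on HFD, 0 of 10 macrophage markers were called by limma and 7 had an unadjusted p under 0.05, where 21.5% of all genes had, with a median of −0.67. No macrophage marker was at 0 in a whole group. Of 5 adipocyte markers, Lep, which encodes leptin, rose by 2.18 in WT and 1.64 in KO, Cidec rose by 0.48 in KO, and Plin1 fell by 0.77 and 0.57 and Adipoq by 0.60 in WT.

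Of the dendritic cell markers, 6 of 8 tested rose in WT, and 6 rose and 2 fell in KO. Among all genes tested, 21.9% were called higher in WT and 23.3% in KO. Itgax rose by 4.67 and 3.63, Irf8 by 1.91 and 1.43, and Clec10a by 1.55 and 0.58, while Zbtb46 and Cd209a fell by 0.35 and 0.46 in KO. The sum of this list was 15.6 to 29.0 FPKM in WT NCD, 28.7 to 37.0 in KO NCD, 85.6 to 115.4 in WT HFD and 43.6 to 101.7 in KO HFD. Itgax, which encodes CD11c, is also made by macrophages of obese fat, so that this list does not separate the 2 cell types.

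B cell markers followed other mice. Of 5 tested in WT, 1 rose (Cd22, 1.13), and of 4 tested in KO, 3 rose (Cd22 0.91, Cd79a 0.88, Cd79b 0.73), where 21.9% and 23.3% of all genes tested were called higher. Their sum was 4.08 to 6.91 FPKM in WT NCD, 1.85 to 3.52 in KO NCD, 4.67 to 16.8 in WT HFD and 3.75 to 14.2 in KO HFD. The highest sums were those of WT HFD mouse 162 (16.82) and KO HFD mouse 152 (14.24), the same mice with the highest H2-DMb2, H2-Oa and H2-Ob. H2-Ob was at 1.18 and 1.05 FPKM, H2-Oa at 0.845 and 0.954 and H2-DMb2 at 2.68 and 2.29 FPKM in these 2 mice. For the T cell list, 0 of 1 gene tested was called in WT and Trac rose by 0.89 in KO.

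The deviations of each library from its group mean were correlated as a description over the 18 visWAT libraries, which share tissue, extraction and scaling. With the B cell sum, H2-Ob gave r = 0.96 (Spearman's rho 0.94), H2-DMb2 0.85 and H2-Oa 0.80, against 0.26 to 0.53 for the other 7 members. Without the 2 libraries farthest from the middle, these were 0.91, 0.67 and 0.55, against 0.34 to 0.57, so that H2-Oa then lay within the range of the other 7. With the macrophage sum, H2-DMb2 gave −0.03, H2-Oa 0.24 and H2-Ob 0.45, and the other 7 members 0.58 to 0.82. For the dendritic cell sum, r was highest for H2-DMb1, at 0.93 (rho 0.96, and 0.95 without the 2 farthest libraries). It was 0.83 for Cd74 and H2-Aa, 0.77 for H2-Ab1, 0.76 for H2-Eb1, 0.75 for H2-DMa and 0.72 for Ciita. The macrophage sum gave 0.68, 0.74, 0.6, 0.63, 0.58 and 0.75 for Cd74, H2-Aa, H2-Ab1, H2-Eb1, H2-DMa and Ciita, higher only for Ciita. H2-DMb2, H2-Oa and H2-Ob gave 0.21, 0.44 and 0.53 with the dendritic cell sum. Whether r differs between these sums was not tested.

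**Figure D5:**
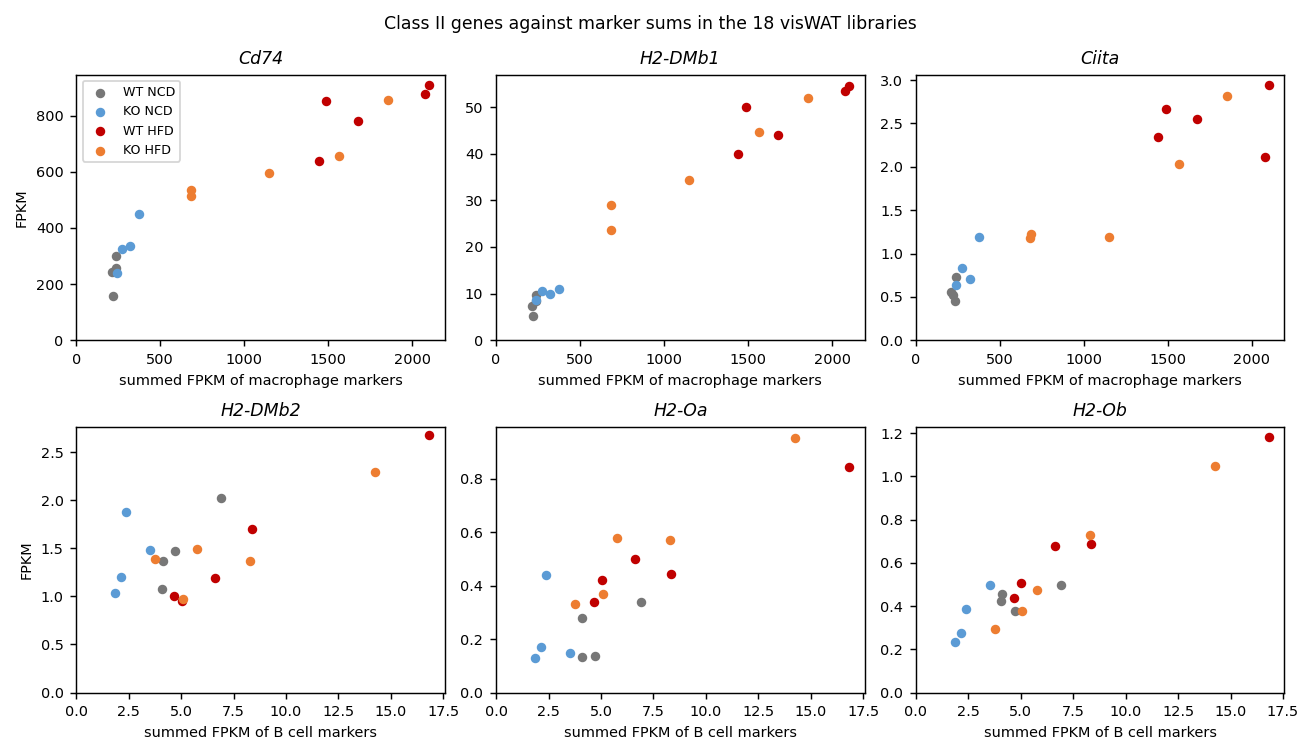
FPKM of Cd74, H2-DMb1 and Ciita against the summed FPKM of 10 macrophage markers (upper panels) and of H2-DMb2, H2-Oa and H2-Ob against the summed FPKM of 8 B cell markers (lower panels), 1 point per visWAT library. The macrophage sum separates the diets (211 to 374.2 on NCD, 682 to 2099 on HFD), whereas the 2 highest B cell sums, 16.8 and 14.2, belong to single HFD mice of each genotype that also have the highest H2-Ob.

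In liver, the 2 mice that stood apart also stood apart in these markers. KO HFD mouse 152 had the highest macrophage sum (209.8 FPKM), Kupffer cell sum (144.9) and dendritic cell sum (10.54) of all livers. WT NCD mouse 182 had the highest macrophage sum (149.1) and dendritic cell sum (8.157) of its group but its lowest Kupffer cell sum (38.92). Kupffer cells are the resident macrophages of the liver. Of 5 Kupffer cell markers, 2 rose with HFD in WT liver and 0 in KO liver by limma, with 4 and 0 at an unadjusted p under 0.05, where 37.5% and 35.6% of all genes had. The B cell sum was 0.838 to 2.76 FPKM over all livers.

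Members also varied together from mouse to mouse within groups. Over 18 libraries, the deviations of Cd74, H2-Aa, H2-Ab1 and H2-Eb1 from their group means correlated pairwise with r = 0.963 to 0.987 in visWAT and 0.965 to 0.981 in liver. In liver, the mean deviation of these genes was largest in KO HFD mouse 152 (1.339 log2 units) and WT NCD mouse 182 (1.197). Pairwise values without these 2 livers were not computed, so the liver values may rest largely on them. Pairs that included H2-DMb2, H2-Oa or H2-Ob had a median r of 0.325 in visWAT and 0.506 in liver. These pairs were not alike. H2-DMb2 gave r of 0.855 to 0.888 with Cd74, H2-Aa, H2-Ab1 and H2-Eb1 in liver, on few reads, and 0.203 to 0.26 in visWAT. The highest liver values of H2-DMb2 were those of the same 2 mice, 152 (0.954 FPKM) and 182 (0.746 FPKM). In visWAT, H2-DMb2, H2-Oa and H2-Ob correlated with each other at r of 0.792 to 0.838. Outside the members, the genes with the pattern most like the mean of Cd74, H2-Aa, H2-Ab1 and H2-Eb1 were, of 10910 visWAT genes at 1 FPKM or more, Pld4 (r = 0.924), Ppp1r12c (0.907), Lst1 (0.905), Ccdc9 (0.893) and Fgd2 (0.89). Of 9952 liver genes they were Axl (0.968), Ctss (0.965), Kctd12 (0.964), Ccl5 (0.961) and Laptm5 (0.958). Without the 2 libraries farthest from the group means, the 5 visWAT values were 0.866 to 0.92 and the 5 liver values 0.833 to 0.885. None of the 5 leading genes was shared between the tissues.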

How the data were processed

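RNA-seq of visWAT and liver from 18 mice was used, with groups and mouse numbers taken from the sample labels. The authors selected polyadenylated RNA, mapped 150-base paired reads with HISAT2 to mm39 and counted them with featureCounts (1.5.0-p3 in the submitters' processing notes). Strandedness, annotation release and how multi-mapped reads were handled are not given in the sources used here. The authors deposited FPKM for 56748 genes and the gene length in bases, and, for the genes of their comparison tables, raw counts of reads. The deposited comparison tables also hold log2 fold changes and p-values of the authors. These, and the pathway tables with the authors' enrichment p-values, were not used, and a further 72 columns of values per sample were left out.

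Comparing counts with FPKM gave the library size that the authors had divided by, and with it all FPKM were turned back into reads, of which 100.0% came out whole within 0.01 reads. That divisor exceeded the gene-assigned reads by a factor of 1.01 to 1.40 for visWAT, and for liver it was 0.737 to 0.812 of them, so the deposited FPKM contain a scaling between libraries. No 2 replicate libraries agreed within sampling noise (chi-square per gene of 9.82 or more in 64 pairs). Nothing states separate processing batches.

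The test was limma 3.58.1 (R 4.3.3) with an empirical Bayes trend on log2(FPKM + 1), fitted to the groups compared, or to all 18 libraries of a tissue for the genotype-by-diet interaction, with Benjamini-Hochberg adjustment over all genes with a mean of at least 0.5 FPKM and a threshold of 0.05. Exact permutation tests were two-sided. The step was tested on simulated data. Alternatives were edgeR 4.0.16 (quasi-likelihood) and DESeq2 1.42.0 on the recovered reads, the TPM scale, a pseudocount of 0.1, a stricter filter (mean of 1 FPKM) or none, a fit over all libraries of a tissue, leaving out each library or mouse, and the mouse as a replicate block for the tissue comparisons. The same mouse gave both tissues, so that the numbers pair the libraries, although deviations of the same mouse correlated with r of only −0.051 to 0.059. Leaving out mice 182 and 183, or 182 and 152, was added after seeing the data.

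The 10 members and the gene lists (promoter factors, endosomal processing, turnover and co-stimulation, interferon gamma axis, class I, and markers of macrophages, dendritic cells, B cells, T cells, Kupffer cells, adipocytes and hepatocytes) were chosen with earlier results of these data known. Values per mouse are given for Cd74, the classical chains, Ciita and any member that was called or whose groups did not overlap, with other members added where a result turns on them. List genes are named where called or defining. Like genes are those with the highest correlation of log2 deviations from group means with the mean of Cd74, H2-Aa, H2-Ab1 and H2-Eb1, of which the first 5 of 10 per tissue are named. Promoters were read from RefSeq tables (GRCm38.p6) and shared transcript windows from GENCODE transcripts. Protein sequences were not used here.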

Additional observations from a re-analysis of the deposited data

Results flagged for a closer look

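Within 80 groups of 4 or 5 mice (10 genes in 8 groups), 5 had a mouse far from the others by Dixon's criterion, 6.25%, where chance gives about 1 in 20 groups. In WT NCD visWAT, H2-Eb1 was lowest in the library labelled mouse 182, at 58.0 FPKM, with the next at 91.99 FPKM, and this is the library whose Mlkl level went against its label. In KO NCD visWAT, H2-Oa was highest in mouse 179, at 0.44 FPKM, with the next at 0.1717 FPKM, from 6 to 19 reads per library. In WT HFD liver, H2-DMa was lowest in mouse 162, at 0.764 FPKM, with the next at 0.9924 FPKM. In KO HFD liver, mouse 152 was highest for H2-Ab1, at 20.4 FPKM with the next at 7.708 FPKM, and for H2-DMb1, at 4.43 FPKM with the next at 1.491 FPKM. The same liver had the highest macrophage and Kupffer cell marker sums, and their part in these values was not tested.

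The diet effect differed between visWAT and liver of WT mice for 7 members by the test of the difference itself (limma, Benjamini-Hochberg over all genes tested). The difference in log2 change, visWAT minus liver, was 2.69 for H2-DMb1, 1.95 for Cd74, 1.93 for H2-Ab1, 1.92 for H2-Aa, 1.7 for H2-Eb1, 1.29 for H2-DMa and 1.15 for Ciita.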

How the results depend on the processing

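The number of members called in each of the 13 comparisons stayed within 1.5 times its value in the 126 fits that left out one library or mouse and in 97 others. For single members that were called, 520 alternatives kept the call, 7 lost it and 0 changed the sign, and the 7 were all Ciita with diet in KO visWAT, as given above. For members that were not called, 97 alternatives changed the sign and 1023 kept it. With the mouse as a replicate block, which pairs the tissues of each animal, the numbers called were 7 of 8 for the tissue-by-diet interaction, 7 of 7 on NCD and 8 of 8 on HFD, and the block changed no call. The cause of the changes below was not tested. Over all genes, DESeq2 called 146 against 3 genes between genotypes in HFD visWAT, 8 against 0 in NCD visWAT, 259 against 26 in HFD liver, 19 against 1 in NCD liver, 19 against 0 in the visWAT interaction and 58 against 2 in the liver interaction, and edgeR called 1 in the last. In HFD liver the calls were 17 higher and 9 lower, and 12 and 16 on the TPM scale, and 7 with no filter. The fit over all libraries of a tissue called 9 in HFD visWAT, 1 in NCD visWAT and 3 in NCD liver, and no filter 2 and 3 in these last.

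Leaving out 1 library at a time, log2 changes with diet ranged from −0.17 to 0.08 for H2-DMb2 in WT visWAT and −0.05 to 0.15 in KO visWAT. In WT liver they ranged from −0.39 to 0.24 for Cd74, −0.38 to 0.18 for H2-Aa, −0.51 to 0.16 for H2-Ab1, −0.43 to 0.33 for H2-Eb1, −0.19 to 0.23 for H2-DMa and −0.28 to 0.05 for H2-DMb1. In KO liver they ranged from −0.45 to 0.1 for Cd74, −0.44 to 0.04 for H2-Aa, −0.27 to 0.18 for H2-Ab1, −0.45 to 0.07 for H2-Eb1, −0.11 to 0.14 for H2-DMa and −0.05 to 0.34 for H2-DMb1. Between genotypes the ranges were −0.08 to 0.17 for H2-DMb2 in HFD visWAT, −0.14 to 0.05 for H2-DMb2 in NCD visWAT, −0.2 to 0.12 for H2-DMb1 in HFD liver and −0.36 to 0.06 for H2-DMa in NCD liver. For the genotype-by-diet interaction in visWAT they were −0.03 to 0.22 for H2-DMb2 and −0.11 to 0.06 for H2-Ob. In liver they were −0.34 to 0.3 for Cd74, −0.3 to 0.27 for H2-Aa, −0.14 to 0.53 for H2-Ab1, −0.42 to 0.34 for H2-Eb1 and −0.16 to 0.25 for H2-DMa. For H2-DMb2 the tissue-by-diet value ranged from −0.28 to 0.06.

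Without mice 182 and 183, diet in WT liver gave 0.23 for Cd74, 0.18 for H2-Aa, 0.19 for H2-Ab1, 0.4 for H2-Eb1 and 0.23 for H2-DMa, and genotype in NCD liver 0.06 for H2-DMa. Without mice 182 and 152, the liver interaction gave −0.69 for Cd74, −0.63 for H2-Aa, −0.43 for H2-Ab1, −0.78 for H2-Eb1, −0.34 for H2-DMa and −0.09 for H2-DMb1. With a pseudocount of 0.1, H2-DMa gave 0.06 with diet in WT liver, H2-Ob 0.03 in the visWAT interaction and H2-Eb1 −0.02 in the liver interaction. On the TPM scale, H2-DMb2 gave 0.34 with diet in WT visWAT, −0.05 and 0.23 between genotypes on HFD and NCD, −0.28 in the visWAT interaction and 0.26 in the tissue-by-diet interaction. On that scale H2-DMa gave 0.01 with diet in WT liver, H2-DMb1 −0.02 between genotypes in HFD liver and H2-Eb1 −0.05 in the liver interaction. With edgeR and DESeq2, diet in KO liver gave 0.14 and 0.13 for Cd74, 0.09 and 0.08 for H2-Aa and 0.16 and 0.14 for H2-Eb1, and the visWAT interaction 0.11 and 0.1 for H2-Ob.

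H2-Oa and the liver values of H2-Ob, H2-DMb2 and Ciita rest on few reads, and differences in them were not detectable at this depth unless large. In visWAT, H2-Ob had 41 to 230 reads per library.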
